A study of Mus musculus with 6 samples.

Results

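Nuclear receptors other than the estrogen receptors were followed in hindlimb muscle satellite cells, the stem cells of skeletal muscle, through 38 genes chosen by symbol out of 24980 listed symbols. All 38 symbols were listed. The set does not hold every nuclear receptor, and the REV-ERB genes Nr1d1 and Nr1d2 are among those outside it. RNA-seq was done on 3 libraries of scERα KO and 3 of scERα WT cells, sorted by flow cytometry from adult C57BL6/J mice. In KO mice the estrogen receptor α gene Esr1 was targeted in satellite cells. Mice of both genotypes were dosed with tamoxifen (10 mg over the course) for Cre induction, and tamoxifen is itself a ligand of estrogen receptors. The Cre driver, the sex of the mice and whether a library came from 1 mouse are not given in the sources used here, so p-values measure only the spread between these libraries.

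Nuclear receptors are transcription factors, many of them switched by small fat-soluble ligands such as thyroid hormone, retinoic acid, glucocorticoids, fatty acids and oxysterols. Most receptors of non-steroid ligands bind DNA as heterodimers with a retinoid X receptor (RXR), while the glucocorticoid and mineralocorticoid receptors are held by chaperones and move to the nucleus with their hormone. In skeletal muscle, thyroid hormone, glucocorticoid and PPAR signalling are known for their effects on fibre type, protein breakdown and fuel use.

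The deposited values were TPM, a transcript level scaled for length and for the library total, so levels of different genes can be set side by side. Listed symbols held 29.5% to 33.4% of the total that TPM values sum to. TPM keeps no depth, so the depth is unknown. Esr1 held 2.92, 3.69 and 3.87 TPM in KO libraries, against 7.53, 6.96 and 6.94 TPM in WT libraries, which is the side each label names. All 12 satellite cell markers reached 1 TPM, with Pax7 at 17.9, 32.8 and 29.5 TPM in KO and 23.0, 25.4 and 23.3 TPM in WT libraries. Markers of other cells were also present, and whether their transcripts came from those cells or from satellite cells was not tested. The summed endothelial markers lay between 13.1 and 27.7 TPM in KO and between 13.5 and 20.7 TPM in WT libraries, and the summed mature fibre markers between 16.2 and 57.1 TPM in KO and between 18.5 and 34.9 TPM in WT libraries. Tek alone held 6.63, 8.17 and 6.26 TPM of the endothelial sum in KO and 6.17, 8.32 and 6.04 TPM in WT libraries. The fibroblast markers lay between 169 and 194 TPM in KO and between 137 and 241 TPM in WT libraries. Of their 10 genes 7 reached 1 TPM in 3 or more libraries, and Gsn, Col3a1 and Dpt were the highest in every library. Pdgfra held 0.20, 0.13 and 0.18 TPM in KO libraries, against 0.10, 0.14 and 0.31 TPM in WT libraries. Pi16 reached no more than 0.28 TPM in KO and 0.13 TPM in WT. The summed pericyte and smooth muscle markers lay between 45.9 and 68.5 TPM in KO and between 45.0 and 50.7 TPM in WT libraries. Of the pericyte and smooth muscle sum Notch3 held 19.9, 23.2 and 21.7 TPM in KO and 18.3, 17.8 and 14.2 TPM in WT libraries. The erythroid markers varied most, at 419, 437 and 38.4 TPM in KO and 215, 43.7 and 18.2 TPM in WT libraries.

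Satellite cells expressed 13 of the 38 receptor genes, where a gene counted as expressed if 3 or more libraries reached 1 TPM. That is 34.2% of the receptor genes, against 35.9% of all listed symbols. Another 12 had a mean between 0.1 and 1 TPM, 11 had a lower mean above 0, and Nr0b1 and Nr1h4 were listed at 0 in every library. The expressed 13 made up between 90.1% and 91.7% of the receptors' summed TPM in KO and between 89.3% and 92.1% in WT libraries. Thra, Rora and Nr3c1 alone made up between 49.5% and 51.9% in KO and between 45.5% and 51.2% in WT libraries. In the order of mean levels each gene's range over the 6 libraries overlapped that of the next gene, with 1 break, between Rora and Nr3c1.

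**Figure D1:**
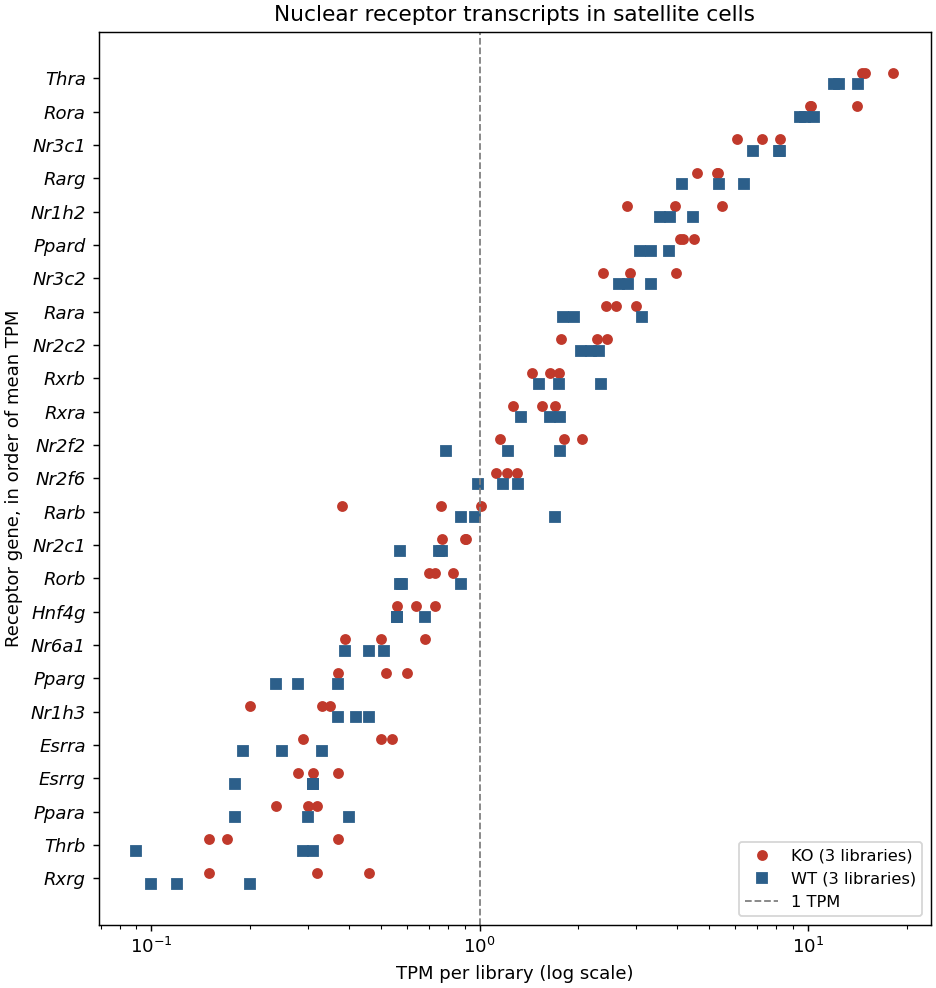
TPM in each library (log axis) for the 25 receptor genes with a mean of 0.1 TPM or more, with KO libraries as circles above the squares of WT libraries. Levels ran from Thra at 14.4 TPM to Rxrg at 0.225 TPM on average, and the dashed line at 1 TPM passes between Nr2f6 and Rarb.

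Thra, which encodes thyroid hormone receptor α, was the most abundant transcript among the 38 receptor genes. It held 14.9, 14.6 and 18.2 TPM in KO libraries, against 12.02, 12.5 and 14.2 TPM in WT libraries. Every KO library lay above every WT library, although the nearest values were 14.6 and 14.2 TPM. The log2(TPM + 1) difference was 0.28 (SE 0.14, 95% interval -0.05 to 0.60), which did not pass (limma, Benjamini-Hochberg adjusted p = 0.532 over all 8971 genes tested). Thra ranked 1063rd in mean TPM among all listed symbols. Thrb, the thyroid hormone receptor β gene, held 0.15, 0.37 and 0.17 TPM in KO libraries, against 0.29, 0.31 and 0.09 TPM in WT libraries. Thra was thus between 97.5% and 99.1% of the pair's sum in KO and between 97.6% and 99.4% in WT.

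Thra lies on the plus strand of chromosome 11 from 98740638 to 98769006 (GRCm38, GENCODE vM21), and its 3′ end shares 263 exonic bases with Nr1d1, the gene of the clock repressor REV-ERBα, on the opposite strand. The strandedness of the libraries was not stated, so reads from the shared stretch cannot be assigned with certainty and both values are uncertain to that extent. Nr1d1 held 9.27, 11.01 and 8.95 TPM in KO libraries, against 5.14, 5.35 and 5.57 TPM in WT libraries. KO and WT did not overlap, and the ratio of means was 1.82, with a log2(TPM + 1) difference of 0.75 (SE 0.13) that did not pass the threshold (limma adjusted p = 0.115). It passed with robust moderation (limma adjusted p = 0.0402), library weights (0.0348) and protein-coding genes rescaled (0.0300), in a range of 0.0300 to 0.326 over the alternatives.

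Rora, whose product ROR α activates clock and lipid genes through the sites that REV-ERBs occupy, was next, on the plus strand of chromosome 9 from 68653786 to 69388246. It held 10.2, 14.1 and 10.1 TPM in KO libraries, against 9.49, 10.4 and 9.83 TPM in WT libraries. KO library 2 was the highest and the other values overlapped (log2 difference 0.18, SE 0.15, limma adjusted p = 0.688). Its paralogue Rorb stayed below 1 TPM, at 0.70, 0.83 and 0.73 TPM in KO and 0.57, 0.88 and 0.58 TPM in WT libraries. Of 13 genes in the ROR and REV-ERB clock list 10 were tested, and 0 passed the adjusted threshold in either direction. Nr1d2, which encodes REV-ERBβ and does not overlap Thra, held 7.69, 9.23 and 6.59 TPM in KO libraries, against 5.04, 7.28 and 3.93 TPM in WT libraries, which overlap (limma adjusted p = 0.458). The list's median log2 difference was 0.06, against 0.12 over all genes tested.

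Nr3c1, which encodes the glucocorticoid receptor (chromosome 18, 39410545 to 39519421, minus strand), held 6.10, 8.25 and 7.25 TPM in KO libraries, against 8.23, 6.81 and 8.17 TPM in WT libraries. The groups overlapped (log2 difference -0.10, 95% interval -0.43 to 0.24, limma adjusted p = 0.812). Nr3c2, the mineralocorticoid receptor gene on the plus strand of chromosome 8 (76899442 to 77245012), held 2.87, 3.98 and 2.38 TPM in KO libraries, against 3.34, 2.83 and 2.66 TPM in WT libraries. Both corticosteroid receptors were therefore expressed, with the Nr3c1 transcript between 2.07 and 3.05 times the Nr3c2 transcript in KO and between 2.41 and 3.07 times in WT libraries. Hsd11b1, which regenerates active glucocorticoid inside cells, held 7.33, 9.06 and 7.59 TPM in KO and 7.08, 8.56 and 7.14 TPM in WT libraries. Hsd11b2, which inactivates it, reached no more than 0.34 TPM in KO and 0.21 TPM in WT.

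Glucocorticoid-responsive genes went in both directions. Of 19 tested members of 20, 0 passed the adjusted threshold. In KO 8 had a higher and 11 a lower value, where 77.6% of all genes tested had a higher value. The median log2 difference was -0.09, against 0.12 over all genes tested. Fbxo32, a ubiquitin ligase of muscle protein breakdown, held 3.36, 2.69 and 2.85 TPM in KO libraries, against 7.12, 4.14 and 5.50 TPM in WT libraries (limma adjusted p = 0.209, with a range of 0.0423 to 0.525 over the alternatives). Cebpb, a transcription factor gene, held 81.5, 87.4 and 67.1 TPM in KO libraries, against 99.8, 116 and 95.7 TPM in WT libraries (limma adjusted p = 0.402). Per1, a clock gene with a glucocorticoid response, ran the other way, at 7.01, 8.19 and 7.37 TPM in KO libraries, against 3.58, 6.34 and 6.06 TPM in WT libraries (limma adjusted p = 0.448). The groups did not overlap for Fbxo32, Cebpb or Per1. Among 11 tested genes of glucocorticoid supply and receptor chaperoning, 0 passed, and the smallest p values belonged to H6pd, which supplies NADPH to the Hsd11b1 enzyme, at 3.32 ± 0.799 TPM in KO and 4.70 ± 1.25 TPM in WT (SD, n = 3 each), and to the receptor cochaperone gene Fkbp5, at 2.77 ± 0.996 TPM in KO and 2.17 ± 1.14 TPM in WT (SD, n = 3 each).

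All 3 retinoic acid receptors were detected, led by Rarg (chromosome 15, 102234938 to 102257517, minus strand). Rarg held 4.61, 5.29 and 5.32 TPM in KO libraries, against 4.14, 6.41 and 5.36 TPM in WT libraries, with the KO values inside the WT range. Rara, on the plus strand of chromosome 11 (98927818 to 98974942), held 2.42, 2.61 and 3.0 TPM in KO libraries, against 1.80, 1.94 and 3.13 TPM in WT libraries. Neither passed (limma adjusted p = 0.930 for Rarg and 0.711 for Rara). Rarb, itself a classical retinoic acid target, lay just below the threshold of expression, at 0.38, 1.01 and 0.76 TPM in KO libraries, against 0.88, 1.70 and 0.97 TPM in WT libraries.

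Cyp26a1, which degrades retinoic acid, held 0.22, 0.29 and 0.29 TPM in KO libraries, against 0.54, 1.65 and 0.83 TPM in WT libraries. Cyp26c1 of the same enzyme family held 0, 0.03 and 0.06 TPM in KO libraries, against 0.07, 0.10 and 0.14 TPM in WT libraries. For both, KO and WT did not overlap, while Cyp26b1 did, at 0.08, 0.15 and 0.12 TPM in KO and 0.20, 0.27 and 0.14 TPM in WT libraries. These 3 genes did not reach the filter and are named after their values were seen. With no filter on low values, none of them passed over 20506 genes (limma adjusted p = 0.523 for Cyp26a1, 0.616 for Cyp26c1 and 0.701 for Cyp26b1). Dhrs3, a retinaldehyde reductase induced by retinoic acid, held 0.41, 1.21 and 1.29 TPM in KO libraries, against 1.57, 5.57 and 1.13 TPM in WT libraries (limma adjusted p = 0.532). WT library 2 was the highest of the 6 for Rarb, Cyp26a1, Cyp26b1 and Dhrs3.

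Rarres2, a retinoic acid-responsive gene that encodes chemerin, held 16.0, 23.6 and 18.2 TPM in KO libraries, against 11.5, 12.8 and 9.09 TPM in WT libraries (limma adjusted p = 0.209, with a range of 0.0356 to 0.480 over the alternatives). Of 5 tested target genes of 12, 4 had a higher value in KO and 0 passed, with a median log2 difference of 0.14. Of 7 tested genes of retinoid supply and clearance of 16, 6 had a higher value and 0 passed, with a median of 0.11. Over all genes tested 77.6% had a higher value in KO and the median was 0.12. Aldh1a1, which makes retinoic acid, held 7.56, 9.13 and 9.26 TPM in KO libraries, against 8.35, 6.30 and 7.06 TPM in WT libraries, and the groups overlap.

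Of the fatty acid receptors, Ppard was expressed and the other PPARs were not. Ppard (chromosome 17, 28232700 to 28301474, plus strand), the PPAR δ gene known for oxidative metabolism in muscle, held 4.09, 4.17 and 4.50 TPM in KO libraries, against 3.34, 3.79 and 3.09 TPM in WT libraries. KO and WT did not overlap, and the ratio of means was 1.25. The log2 difference of 0.26 (SE 0.12, 95% interval -0.02 to 0.53) did not pass (limma adjusted p = 0.496). Pparg, the adipogenic PPAR γ, stayed at or below 0.60 TPM in KO and 0.37 TPM in WT libraries, and Ppara at or below 0.32 TPM in KO and 0.40 TPM in WT. Of 15 tested PPAR target genes of 20, 13 had a higher value in KO and 0 passed, where 77.6% of all genes tested had a higher value, and the list's median log2 difference was 0.24, against 0.12 over all genes tested. Fabp4, a fatty acid binding protein gene, held 6.27, 34.1 and 19.6 TPM in KO libraries, against 9.89, 15.7 and 11.1 TPM in WT libraries. Cd36, a fatty acid uptake receptor gene, held 1.18, 5.37 and 4.46 TPM in KO libraries, against 1.39, 3.07 and 1.98 TPM in WT libraries. Both are also known from capillary endothelium, and the summed endothelial markers ran in the same order within each group, at 13.1, 27.7 and 21.6 TPM in KO and 13.5, 20.7 and 15.1 TPM in WT libraries. Their part in the PPAR list was not tested. Ucp2, an inner mitochondrial membrane carrier, held 2.54, 2.25 and 2.25 TPM in KO libraries, against 1.59, 1.75 and 1.38 TPM in WT libraries (limma adjusted p = 0.286). Ech1, an enzyme of unsaturated fatty acid oxidation, held 2.0, 2.99 and 2.63 TPM in KO libraries, against 1.63, 1.80 and 1.97 TPM in WT libraries (limma adjusted p = 0.457).

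Among sterol receptors the liver X receptor β gene Nr1h2 dominated (chromosome 7, 44549616 to 44553951, minus strand), at 2.81, 5.48 and 3.94 TPM in KO libraries, against 3.81, 4.47 and 3.54 TPM in WT libraries. The KO libraries spanned the WT range on both sides (log2 difference 0.01, 95% interval -0.44 to 0.46, limma adjusted p = 0.985). Nr1h3, the liver X receptor α gene, held 0.35, 0.33 and 0.20 TPM in KO libraries, against 0.42, 0.37 and 0.46 TPM in WT libraries, with every KO value below every WT value at a level under the filter. Nr1h4, the farnesoid X receptor gene of liver and gut, was listed at 0. Of 10 tested liver X receptor target genes of 15, 0 passed. The membrane cholesterol exporter gene Abca1 held 1.75 ± 0.323 TPM in KO and 1.74 ± 0.491 TPM in WT (SD, n = 3 each). Scd1, a fatty acid desaturase, held 7.99, 10.9 and 9.10 TPM in KO libraries, against 11.6, 11.3 and 12.1 TPM in WT libraries, with no overlap (limma adjusted p = 0.493), and the small GTPase gene Arl4c held 1.20 ± 0.304 TPM in KO and 1.56 ± 0.606 TPM in WT (SD, n = 3 each; limma adjusted p = 0.721). Of the 10 genes for sterol and bile acid ligand enzymes 3 were tested and 0 passed. Cyp39a1, which hydroxylates an oxysterol, held 2.44, 3.11 and 2.77 TPM in KO libraries, against 2.52, 2.70 and 2.60 TPM in WT libraries, and Cyp51, an enzyme of cholesterol synthesis, held 5.38, 4.56 and 3.63 TPM in KO libraries, against 4.47, 5.57 and 3.96 TPM in WT libraries. Both overlapped between the groups.

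**Figure D2:**
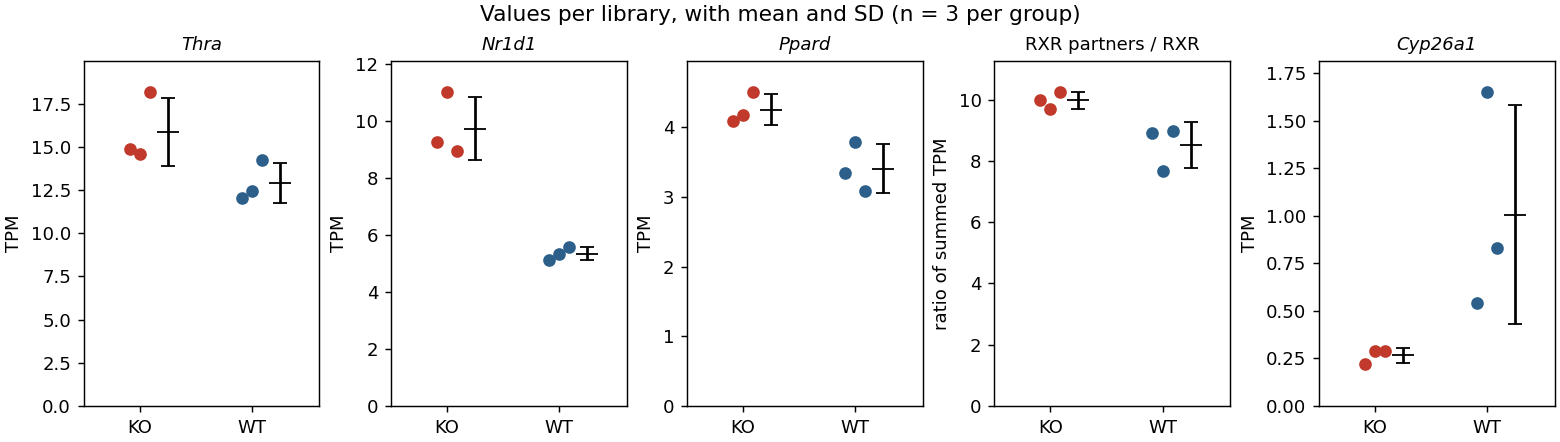
Values per library for Thra, Nr1d1, Ppard and Cyp26a1 in TPM and for the ratio of summed RXR partner TPM to summed RXR TPM, KO left of WT, with mean and SD (n = 3 each). Only values without overlap between the groups are shown, so in every panel the 3 KO values lie on one side of the 3 WT values. For Cyp26a1 they were at most 0.29 TPM in KO against at least 0.54 TPM in WT. Nr1d1 and Cyp26a1 are outside the receptor set. Of the 13 expressed receptor genes 11 overlapped. Over all 8971 genes tested 13.5% lay KO above WT with no overlap and 3.07% lay below.

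The common dimer partners were present at low, nearly equal levels. Rxrb, on the plus strand of chromosome 17 (34031812 to 34038399), held 1.64, 1.44 and 1.74 TPM in KO libraries, against 1.52, 2.35 and 1.74 TPM in WT libraries. Rxra, on the plus strand of chromosome 2 (27676440 to 27762957), held 1.26, 1.70 and 1.55 TPM in KO libraries, against 1.34, 1.76 and 1.64 TPM in WT libraries. Both overlapped between the groups (limma adjusted p = 0.743 for Rxrb and 0.904 for Rxra). Rxrg, the form known from striated muscle, held 0.15, 0.46 and 0.32 TPM in KO libraries, against 0.20, 0.10 and 0.12 TPM in WT libraries.

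Transcripts of the 14 receptors that pair with RXR outnumbered those of the 3 RXR genes in every library. The partners' summed TPM was 9.98, 9.71 and 10.2 times the RXR sum in KO libraries, against 8.91, 7.67 and 8.99 times in WT libraries. The ratio does not depend on how a library is scaled, and its KO values all lay above its WT values. Without overlap, an exact two-sided permutation of the 6 libraries could only give p = 0.1, the lowest that groups of 3 can reach. This p therefore adds nothing to the lack of overlap. Among all genes tested 13.5% lay KO above WT with no overlap. Without Thra the ratio was 5.10, 5.65 and 5.21 in KO libraries, against 4.98, 4.71 and 4.93 in WT libraries. The ratio was computed with the values known, and it concerns transcripts, not protein.

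**Figure D3:**
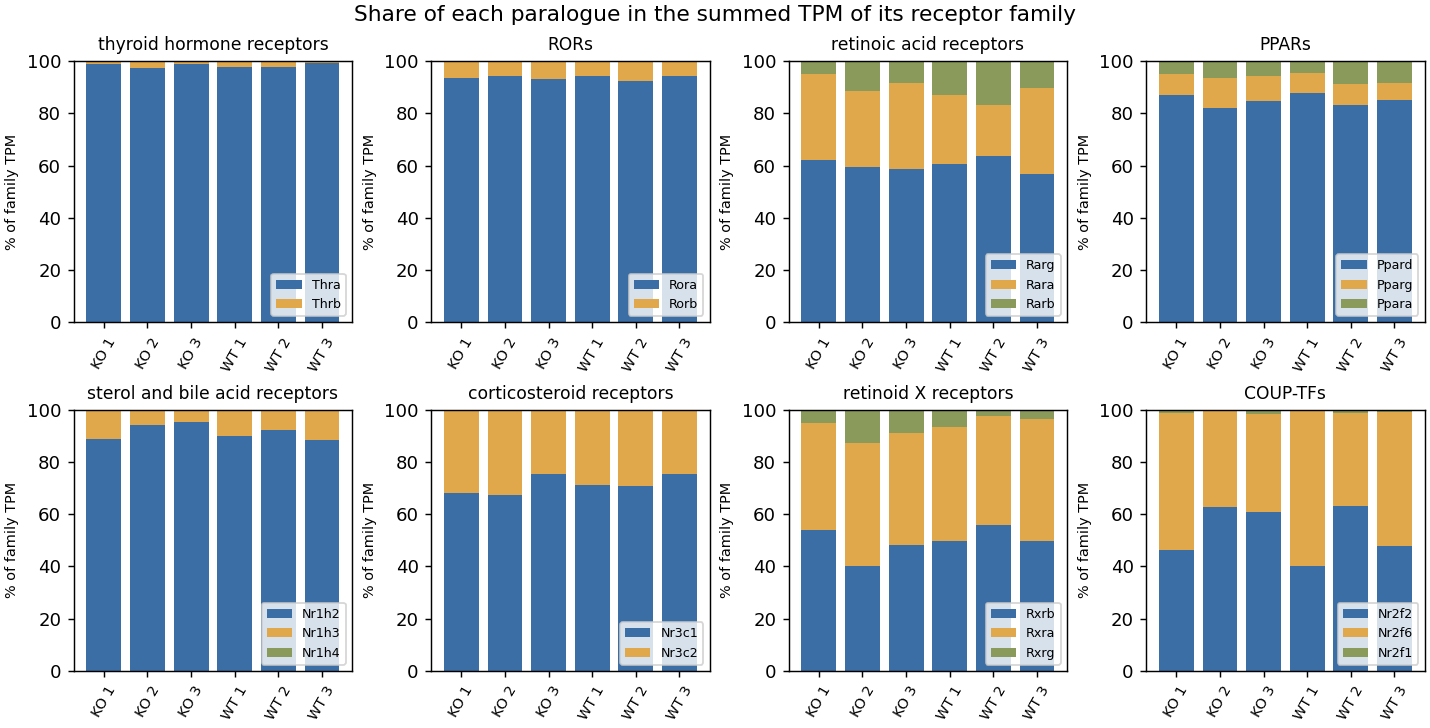
Share of each paralogue in the summed TPM of 8 receptor families, as stacked bars for KO libraries 1 to 3 and WT libraries 1 to 3. Thra, Rora, Ppard and Nr1h2 each held at least 81.9% of their family in every library, while Rxra and Rxrb, and Nr2f2 and Nr2f6, shared theirs.

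Of the orphan receptors of the NR2 group, Nr2c2, Nr2f2 and Nr2f6 were expressed, at low levels, and the others were not. Nr2c2, which encodes TR4 and lies on the plus strand of chromosome 6 (92091390 to 92174294), held 1.77, 2.44 and 2.28 TPM in KO libraries, against 2.18, 2.31 and 2.03 TPM in WT libraries. It shares 4590 exonic bases with Mrps25 on the opposite strand, so its value is uncertain. Rora, Nr3c2 and Nr2f2 likewise share 82, 247 and 643 exonic bases with opposite-strand non-coding genes. The Nr2c2 paralogue Nr2c1, which encodes TR2, held 0.77, 0.90 and 0.91 TPM in KO libraries, against 0.75, 0.77 and 0.57 TPM in WT libraries. Nr2f6 (chromosome 8, 71374123 to 71381960, minus strand), which shares 1622 exonic bases with Ocel1 on the opposite strand, lay between 1.12 and 1.3 TPM in KO and between 0.99 and 1.31 TPM in WT libraries.

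Nr2f2, which encodes COUP-TFII, a regulator of venous endothelial and stromal identity, lies on the minus strand of chromosome 7 (70351944 to 70366735). It held 1.15, 2.05 and 1.81 TPM in KO libraries, against 0.79, 1.76 and 1.22 TPM in WT libraries, and the groups overlapped (log2 difference 0.25, 95% interval -0.20 to 0.70, limma adjusted p = 0.667). The summed TPM of the 10 endothelial markers given beside the PPAR list ran in this order within each group too. Of the 10, 5 reached 1 TPM in 3 or more libraries and none was at 0 throughout. The part of endothelial transcripts in the Nr2f2 values was not tested. In bulk RNA a change in the number of cells of a type and a change in RNA per cell cannot be told apart. Its paralogue Nr2f1 reached no more than 0.05 TPM in KO and 0.04 TPM in WT.

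The estrogen-related receptors, which are orphan receptors of mitochondrial gene control and do not bind estrogen, all stayed below 1 TPM. Esrra held 0.29, 0.54 and 0.50 TPM in KO libraries, against 0.25, 0.19 and 0.33 TPM in WT libraries. Esrrg held 0.31, 0.37 and 0.28 TPM in KO libraries, against 0.31, 0.31 and 0.18 TPM in WT libraries, and Esrrb no more than 0.06 TPM in KO and 0.02 TPM in WT. Of 16 tested ERR target genes of 18, 13 had a higher value in KO and 0 passed, where 77.6% of all genes tested had a higher value. The list's median log2 difference was 0.12, against 0.12 over all genes tested. Cox5a, a respiratory chain subunit, held 5.85, 4.85 and 4.67 TPM in KO libraries, against 4.37, 3.62 and 3.38 TPM in WT libraries (limma adjusted p = 0.403).

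Most receptors known from liver, gut, steroid-producing tissue or early embryo were at or near 0, but Hnf4g and Nr6a1 were not. The vitamin D receptor gene Vdr held 0.09, 0.12 and 0.03 TPM in KO libraries, against 0.03 TPM in each WT library. The xenobiotic receptors Nr1i2 and Nr1i3, the steroidogenic factors Nr5a1 and Nr5a2, Nr0b2 and Hnf4a stayed at or below 0.07 TPM in every library. The brain and retina receptors Nr2e1 and Nr2e3 stayed at or below 0.09 TPM in KO and 0.12 TPM in WT. Hnf4g stood apart from Hnf4a, at 0.56, 0.73 and 0.64 TPM in KO and 0.56, 0.68 and 0.56 TPM in WT libraries, and Nr6a1 held 0.39, 0.50 and 0.68 TPM in KO and 0.46, 0.51 and 0.39 TPM in WT libraries. In the vitamin D list 1 of 12 genes was tested, the protein disulfide isomerase gene Pdia3, at 43.0 ± 2.65 TPM in KO and 32.7 ± 2.97 TPM in WT (SD, n = 3 each; limma adjusted p = 0.349).

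Across the 13 expressed receptor genes, 0 were called higher and 0 lower in KO by limma, and 0 had an unadjusted p under 0.05. In the same fit 0.0334% of 8971 genes were called higher, 0.0223% lower, and 10.6% had an unadjusted p under 0.05, 7.89% higher and 2.66% lower. KO lay above WT with no overlap in Thra and Ppard, 2 of 13, against 13.5% of all genes tested, and below WT in 0 of 13, against 3.07%. The differences ran from -0.13 for Rxrb to 0.28 for Thra, with a median of 0.03 on the log2(TPM + 1) scale, against 0.12 over all genes tested. All 13 intervals excluded a change of 1 in either direction on that scale, which understates the change of genes with low values. The intervals reached 0.28 to 0.45 to each side of the estimates. Scaling by the median of ratios brought the median of all genes to 0.01 and that of the receptors to -0.08.

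**Figure D4:**
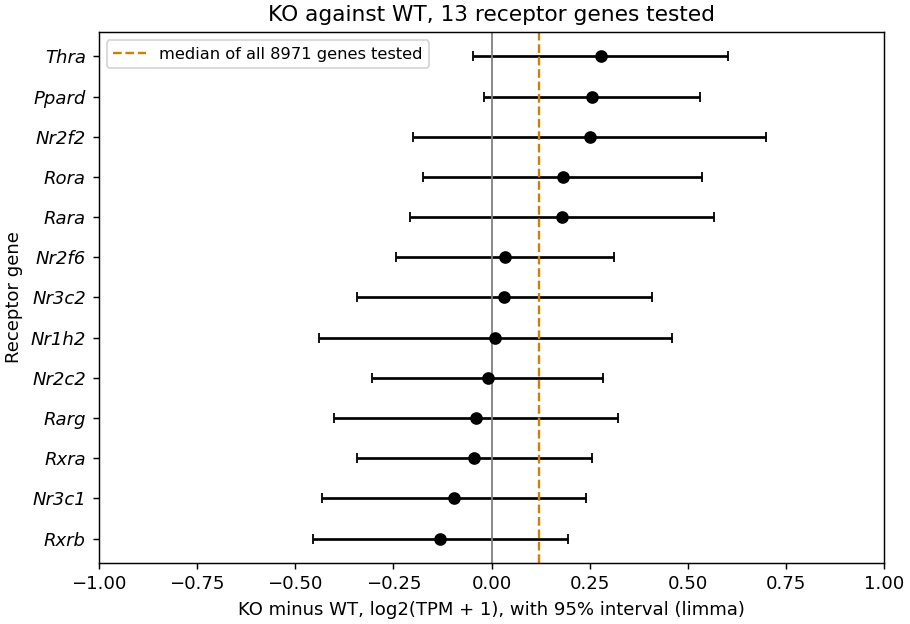
KO minus WT difference on the log2(TPM + 1) scale with 95% intervals from limma for the 13 expressed receptor genes; the dashed line is the median of all 8971 genes tested, 0.12. All intervals include 0, from Thra at 0.28 to Rxrb at -0.13, and Nr2f6, Nr3c2 and Nr1h2 move to the other side of 0 under median-of-ratios scaling.

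Coregulators, the proteins that link receptors to chromatin, were nearly all expressed. Of 24 listed 21 were tested, 20 had a higher value in KO, where 77.6% of all genes tested did, and 0 passed in either direction. Their median log2 difference was 0.08, against 0.12 over all genes. Ncoa1, a coactivator of many receptors, held 14.8, 15.3 and 14.9 TPM in KO libraries, against 10.96, 11.04 and 10.5 TPM in WT libraries. KO and WT did not overlap, with a ratio of means of 1.38 (log2 difference 0.43, SE 0.12, limma adjusted p = 0.230). The corepressor gene Ncor1 overlapped between the groups, at 13.1 ± 2.23 TPM in KO and 11.7 ± 1.70 TPM in WT (SD, n = 3 each).

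Nrip1, a corepressor that is also an estrogen receptor α target, held 2.98, 3.70 and 2.98 TPM in KO libraries, against 4.99, 4.05 and 4.99 TPM in WT libraries, and was the member with a lower value (limma adjusted p = 0.291). Ncoa7, an estrogen receptor-associated coactivator gene, held 2.11, 2.04 and 2.34 TPM in KO libraries, against 1.34, 1.71 and 0.93 TPM in WT libraries (limma adjusted p = 0.313). Hdac3, the deacetylase of the corepressor complexes, held 2.03, 2.76 and 2.70 TPM in KO libraries, against 1.26, 1.82 and 2.07 TPM in WT libraries, which overlap (limma adjusted p = 0.457). Ppargc1a, the coactivator of mitochondrial biogenesis, stayed at or below 0.40 TPM in KO and 0.36 TPM in WT.

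Thyroid hormone handling genes were present beside Thra. The activating deiodinase gene Dio2 held 8.75, 6.92 and 4.44 TPM in KO libraries, against 5.56, 6.90 and 3.56 TPM in WT libraries, whereas the inactivating deiodinase gene Dio3 reached no more than 0.06 TPM in KO and 0.15 TPM in WT. Of 6 tested supply genes of 10 and 5 tested target genes of 10, 0 passed in either list. In KO 2 supply genes had a higher and 4 a lower value, with a median log2 difference of -0.17. For the target genes 4 were higher and 1 lower, with a median of 0.14. Over all genes tested 77.6% had a higher value and the median was 0.12. Thrsp, a thyroid hormone-responsive lipogenic gene in both lists, held 0.34, 1.11 and 0.24 TPM in KO libraries, against 1.01, 1.08 and 1.83 TPM in WT libraries. The groups overlapped through KO library 2 (limma adjusted p = 0.403).

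Promoter sequence was compared with expression for the 34 receptor genes with a RefSeq promoter window (GRCm38.p6, 250 bases before to 50 after a start site). For genes with several windows the one richest in CpG, relative to its C and G content, was used. A ratio of observed to expected CpG of 0.6 or more was found in 7 of 11 expressed and 12 of 23 other receptor genes, or 63.6% and 52.2%. Over all listed symbols the shares were 80% of 6771 expressed and 32.8% of 11464 other genes. The windows of a pair of expressed and a pair of unexpressed receptors are shown with CpG in capitals, because CpG-rich and CpG-poor windows occur on both sides; they were chosen after their values were seen. Rora (chr9:68653536-68653835, plus strand) has 28 CpG and Nr2f2 (chr7:70366697-70366996, minus strand) has 2, and both are expressed. Thrb (chr14:17660710-17661009, plus strand) has 37 and Nr1h4 (chr10:89506609-89506908, minus strand) has 7, and neither is expressed.
Rora: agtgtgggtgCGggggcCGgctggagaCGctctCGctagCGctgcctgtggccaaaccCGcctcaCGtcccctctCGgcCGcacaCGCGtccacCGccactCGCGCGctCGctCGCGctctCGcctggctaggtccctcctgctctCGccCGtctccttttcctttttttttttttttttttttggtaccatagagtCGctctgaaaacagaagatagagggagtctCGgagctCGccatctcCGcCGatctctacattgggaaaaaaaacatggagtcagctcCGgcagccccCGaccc
Nr2f2: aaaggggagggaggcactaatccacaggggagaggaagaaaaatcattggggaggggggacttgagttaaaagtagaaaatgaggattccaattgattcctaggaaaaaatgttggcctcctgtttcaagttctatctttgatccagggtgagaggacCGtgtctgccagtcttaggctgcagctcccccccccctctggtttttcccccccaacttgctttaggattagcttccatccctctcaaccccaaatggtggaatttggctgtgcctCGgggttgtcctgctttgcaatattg
Thrb: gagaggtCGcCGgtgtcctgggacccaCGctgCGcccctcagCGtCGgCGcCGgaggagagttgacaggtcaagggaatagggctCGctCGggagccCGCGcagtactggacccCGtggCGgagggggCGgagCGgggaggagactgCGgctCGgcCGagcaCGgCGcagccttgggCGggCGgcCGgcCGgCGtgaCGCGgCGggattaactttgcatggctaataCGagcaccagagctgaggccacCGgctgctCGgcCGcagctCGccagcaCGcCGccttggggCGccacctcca
Nr1h4: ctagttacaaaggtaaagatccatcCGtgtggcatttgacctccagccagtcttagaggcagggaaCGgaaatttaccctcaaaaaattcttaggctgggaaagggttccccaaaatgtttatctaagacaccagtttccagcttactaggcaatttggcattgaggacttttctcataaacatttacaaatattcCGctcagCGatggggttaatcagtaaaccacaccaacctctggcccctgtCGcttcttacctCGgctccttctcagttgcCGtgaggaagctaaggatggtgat

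**Figure D5:**
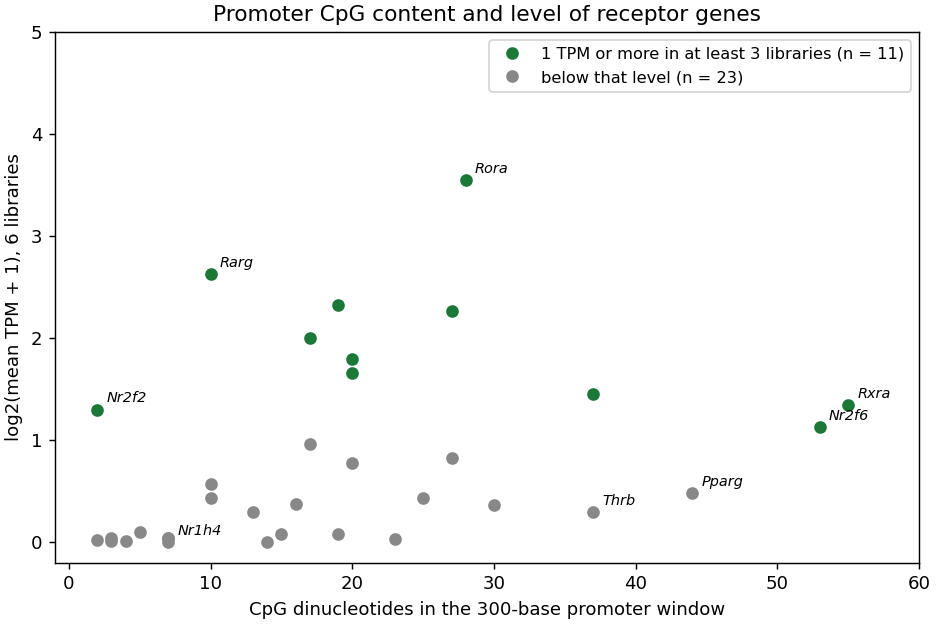
Number of CpG dinucleotides in the 300-base promoter window against log2(mean TPM + 1) over 6 libraries for 34 receptor genes, 11 expressed and 23 not. Rxra with 55 CpG and Nr2f2 with 2 are both expressed, while Pparg with 44 is not.

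The windows were also searched on both strands for receptor motifs. The palindromic estrogen response element, GGTCA and TGACC around a spacer of 3 bases, was found in 0 of 54 receptor gene windows and in 0.07% of all 32851 windows. Direct repeats of AGGTCA with a spacer of 1 base, read by RXR with PPARs, or of 4 bases, read by RXR with thyroid hormone or liver X receptors, were found in 0 receptor gene windows, and in 0.0396% and 0.0152% of all windows. The single half-site AGGTCA, which both direct repeats contain, was found in 11 of the 54 windows, in 10 genes that include Rara, Rarg, Rxra and Pparg, and in 16.3% of all windows. A match is a run of letters only, and no match says nothing about distant sites.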

How the data were processed

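RNA was sequenced from 3 KO and 3 WT libraries of sorted satellite cells. Kallisto, Trimmomatic 0.33, CASAVA and FastQC appear, in no stated order or role, in the submitters' processing notes, as do mm10 and GRCm38. The authors deposited TPM per gene symbol; the annotation, the summing of transcripts per gene and the depth are not given in the sources used here. Values were tested on log2(TPM + 1), for the 8971 genes reaching 1 TPM in 3 or more libraries, with limma 3.58.1 in R 4.3.3 (eBayes with a trend, two-sided, Benjamini-Hochberg over all genes, threshold 0.05). The procedure was tested on simulated data with planted changes larger than those of the receptor genes. How well it finds smaller changes was not tested. The members, the 13 gene lists and the tests were chosen with earlier results of these data known. All members above 0 were to be given by value, and of each list up to 4 tested genes with an unadjusted p under 0.05, or else the 2 with the smallest p. Hsd11b1, Hsd11b2, the Cyp26 genes, Fabp4, Cd36, Abca1, Cyp39a1, Cyp51, Ncor1, Ppargc1a, Dio2 and Dio3 were named after their values were seen. No member reached the filter through 1 group alone. A few genes of the lists are not reported here. The alternatives were other pseudocounts, filters, scalings, moderation, library weights and leaving out each library; rescaled protein-coding genes were added after the data were seen. Coordinates are from GENCODE vM21 and promoters from RefSeq (GRCm38.p6). Python 3.11.15 and matplotlib 3.10.9 drew the figures.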

Additional observations from a re-analysis of the deposited data

How the results depend on the processing

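No paired analysis was possible because no title number is shared by any KO and WT library. Receptor genes called stayed at 0 in each direction under all 17 alternatives. Expressed receptor genes were 18 at 0.5 TPM, 11 at 1 TPM in all 6 libraries, 4 at 5 TPM, and 13 with a mean TPM filter, under median of ratios and without any 1 library; the count was not run under quantile normalization or protein-coding rescaling. Genes called higher in KO over all genes numbered 3; they were 0 with a pseudocount of 0.1, no filter or a mean TPM filter, 1 with a filter of 5 TPM, median of ratios or quantile normalization, 17 with robust moderation, 53 with library weights and 81 with protein-coding genes rescaled. Genes called lower numbered 2; they were 0 with a pseudocount of 5, no filter, a mean TPM filter or quantile normalization, 16 with robust moderation, 27 with library weights and 67 with protein-coding genes rescaled. Leaving out a library gave 0 to 4 higher and 0 to 2 lower: 0 higher without KO library 3, 1 higher without WT library 1, 0 lower without KO library 1, 2 or 3, and 1 lower without WT library 3. With 0 genes called at no filter, 1572 had an unadjusted p under 0.05. Esr1 was -0.86 and not called (limma adjusted p = 0.0925); it passed with robust moderation (-0.86), library weights (-0.86) and protein-coding genes rescaled (-0.95), and ranged from -0.92 to -0.77 without 1 library.

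Thra, Rora, Ppard, Rara and Nr2f2 stayed higher under every alternative that tested them, but their sizes moved by over 1.5 times: Thra 0.28 was 0.12 under quantile normalization and 0.18 without KO library 3, Ppard 0.26 was 0.12 under quantile normalization, Rora 0.18 was 0.018 under quantile normalization and 0.035 without KO library 2, Rara 0.18 was 0.054 under quantile normalization and 0.074 without WT library 1, and Nr2f2 0.25 was 0.16 under quantile normalization and 0.094 without WT library 1. Sizes also moved upward. Rara was 0.35 without WT library 3 and 0.34 with library weights. Nr2f2 was 0.51 with library weights and 0.41 without WT library 2. Signs turned, with 0 calls, under median of ratios and quantile normalization for Nr1h2 (-0.11 and -0.12), Nr3c2 (-0.083 and -0.10) and Nr2f6 (-0.051 and -0.047). With library weights they turned for Rarg (0.17), Nr3c2 (-0.12), Nr2c2 (0.019), Rxrb (0.014), Rxra (0.065) and Nr2f6 (-0.0025), and with protein-coding genes rescaled for Rarg (0.025) and Nr2c2 (0.050). Without 1 library the ranges were -0.18 to 0.20 for Nr1h2, -0.073 to 0.083 for Nr2c2, -0.023 to 0.085 for Nr2f6, -0.19 to 0.0041 for Nr3c1, -0.12 to 0.16 for Nr3c2, -0.18 to 0.085 for Rarg and -0.11 to 0.028 for Rxra. Nr1d1 passed under the alternatives given above, Fbxo32 with library weights and Rarres2 with protein-coding genes rescaled. Receptors aside, the list genes named by p value kept their direction under every alternative that tested them. For list genes named after their values were seen, direction under the alternatives was not examined. The cause of these changes was not tested, and the unknown depth limits what can be said of values below 1 TPM.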

Other observations

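Some receptor genes too low to be tested had their highest values in KO libraries 2 and 3. They are named after their values were seen. Nr2c1 and Esrrb, given above, were also highest in these libraries. The share of all genes with this order was not counted. Esrra held 0.29, 0.54 and 0.50 TPM in KO and 0.25, 0.19 and 0.33 TPM in WT libraries, Rxrg 0.15, 0.46 and 0.32 TPM in KO and 0.20, 0.10 and 0.12 TPM in WT libraries, and Pparg 0.37, 0.60 and 0.52 TPM in KO and 0.28, 0.37 and 0.24 TPM in WT libraries. The summed TPM of 10 mature fibre markers was 16.2, 57.1 and 51.7 TPM in KO and 18.5, 21.4 and 34.9 TPM in WT libraries, with 8 of the 10 at 1 TPM or more and none at 0 throughout. The summed Schwann cell markers were 8.27, 15.3 and 21.4 TPM in KO and 7.22, 6.81 and 9.10 TPM in WT libraries, with Gfra3 at 0. The 8 adipocyte markers, whose tissue is the main site of Pparg, summed to no more than 0.49 TPM in KO and 0.34 TPM in WT, with 0 of 8 expressed. The summed pericyte and smooth muscle markers were 45.9, 68.5 and 65.3 TPM in KO and 50.7, 45.0 and 46.8 TPM in WT libraries. These and the endothelial markers given above were also highest in KO libraries 2 and 3. The leukocyte and satellite cell markers were instead highest in WT library 2, and the fibroblast markers in WT library 3. The erythroid markers were highest in KO libraries 1 and 2. The part of transcripts of any of these cell types in the Esrra, Rxrg and Pparg values was not tested. With no filter, limma called 0 of 23 such low receptor genes, and 0 had an unadjusted p under 0.05.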
